A study of Mus musculus with 12 samples.

Results

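The iron recycling pathway of red pulp macrophages was followed through 10 genes in whole spleens of mice given busulfan and then fecal microbiota transplantation (FMT). Red pulp macrophages of the spleen take up aged red cells, and the heme inside is opened by heme oxygenase, so that its iron can be stored in ferritin or released to plasma transferrin through ferroportin, the only known iron exporter of mammalian cells. The transcription factor encoded by Spic is needed for these macrophages to form. The 10 members were chosen by gene symbol to cover heme and hemoglobin uptake (Cd163, Lrp1), heme breakdown (Hmox1, Blvrb), iron transport out of vesicles (Slc11a1, Slc11a2), iron storage (Fth1), iron export (Slc40a1), plasma iron transport (Trf) and Spic itself. The RPKM (read number scaled to transcript length and to library size) of all listed transcripts of a gene were summed, which gave 18221 genes, and all 10 members were among the 12671 genes that passed the filter on low values (at least 1 RPKM in at least 3 mice). Gene coordinates are those of GRCm38.

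The study asked how busulfan and 2 kinds of donor microbiota changed the spleen, in 12 male ICR mice, an outbred stock, with 3 per group and 4 groups. The Con-sa mice (agent label Blank) received saline and no busulfan, the B-sa mice (Busulfan) a single injection of busulfan at 40 mg/kg and saline, and the B+Con-FMT and B+A10-FMT mice the same busulfan dose and then FMT by mouth for 2 weeks. The donor material was 1 pool of small intestine content per kind of FMT, from control donors for Con-FMT and from donors given alginate oligosaccharide (AOS) at 10 mg/kg for A10-FMT, so that a group shared 1 donor pool. Busulfan is an alkylating drug that harms dividing cells, and all mice were 3 weeks old at the start and 8 weeks old when the spleens were taken. The values come from whole spleen RNA, in which fewer macrophages and less RNA per macrophage cannot be told apart. Differences were tested with limma on log2(RPKM + 1) over the 12671 genes, and a gene was called at a Benjamini-Hochberg adjusted p under 0.05. With 3 mice against 3, the exact permutation test of a single gene cannot give a p below 0.1.

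The 12 spleens differed in globin share and in markers of other tissues, whose part in the members' values was not tested. The RPKM of 10 globin genes made up 23.3% to 32.4% of a mouse's total. The summed RPKM of 9 markers of pancreatic acinar cells, a tissue lying beside the spleen, ran from 405 to 11995 between mice, and that of 4 kidney markers from 0.71 to 117, with the 3 highest values in the Con-sa mice. The spleen itself was well represented, with 8 spleen markers summing to 983 to 1319 RPKM in every mouse. The 18 other red pulp macrophage markers all passed the filter, the complement genes C1qa, C1qc and C1qb being the highest at 154, 131 and 125 RPKM on average over the 12 mice, and the macrophage antigen Adgre1 (F4/80) was at 13.2 to 20.7 RPKM.

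Some of the members carry their regulation in the mRNA itself. An iron-responsive element is a short hairpin to which iron regulatory proteins bind when iron is scarce: in the 5′ untranslated region it holds back translation, and in the 3′ untranslated region it protects the mRNA from decay. The motif searched was a C, 5 bases of stem, the loop CAGTGN of 6 bases and 5 bases pairing with the stem (G-T pairs allowed), 17 bases in all, on the sense strand of GENCODE M21 transcripts (GRCm38). Of the 10 members, 2 held it in the 5′ untranslated region, against 28 of 21875 protein-coding genes (0.128%), and the motif lay in no member's 3′ untranslated region (127 genes, 0.581%). The search needs unbroken pairing, so that an element with a bulge or mismatch in this stem is missed. A member without a match, Slc11a2 among them, may still hold an element. The matches in Slc40a1 and Fth1, in the ferritin light chain gene Ftl1 and in the transferrin receptor gene Tfrc are shown, with the loop in capitals, because such elements act on translation or mRNA decay, and translation was not measured here.
Slc40a1 (ferroportin), 5′ untranslated, chr1:45925471-45925487, minus strand: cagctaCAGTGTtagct
Fth1 (ferritin heavy chain), 5′ untranslated, chr19:9982738-9982754, plus strand: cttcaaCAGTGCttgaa
Ftl1 (ferritin light chain), 5′ untranslated, chr7:45459785-45459801, minus strand: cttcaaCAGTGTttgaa
Tfrc (transferrin receptor), 3′ untranslated, chr16:32631225-32631241, plus strand: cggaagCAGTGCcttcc
Tfrc, 3′ untranslated, chr16:32631604-32631620, plus strand: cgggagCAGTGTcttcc
Tfrc, 3′ untranslated, chr16:32631669-32631685, plus strand: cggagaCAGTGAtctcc
Tfrc, 3′ untranslated, chr16:32631716-32631732, plus strand: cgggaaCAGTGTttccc

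On the per-length RPKM scale the members ranged from rank 33 to rank 11215 of the 12671 genes by mean level. Fth1 was the highest at a mean of 1971 RPKM over the 12 mice, followed by Blvrb at 432 RPKM and Hmox1 at 308 RPKM. Slc40a1 (105 RPKM), Trf (82.4 RPKM) and Spic (61.9 RPKM) came next. Slc11a2 (23.3 RPKM), Slc11a1 (19.2 RPKM) and Lrp1 (9.87 RPKM) were lower, and Cd163 was the lowest at 2.10 RPKM. The depth was estimated from the steps between low values at 14.5 to 15.45 in units of 1e+06 fragments a mouse, which puts 28 to 159 fragments on the leading Cd163 transcript and 2436 to 6855 on that of Slc40a1, so that Cd163 was the least precise of the members.

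**Figure D1:**
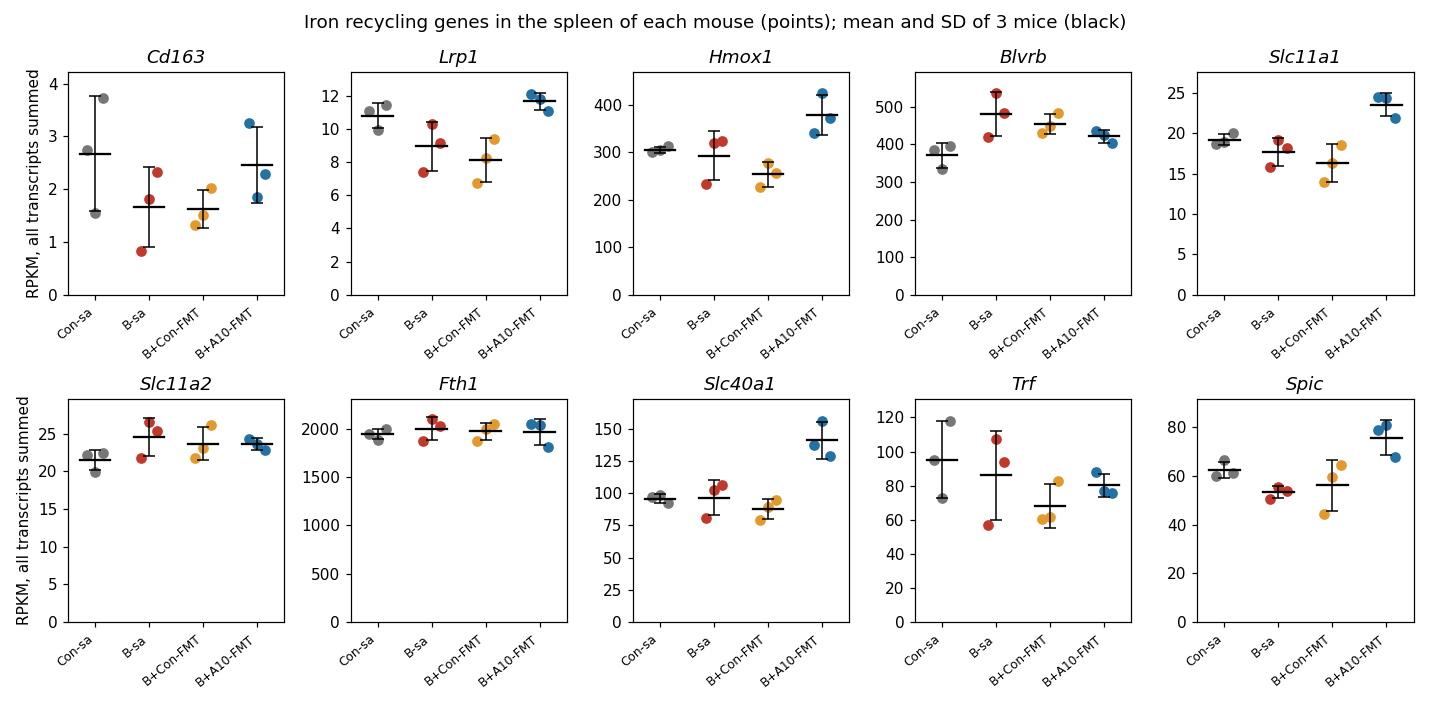
Summed RPKM (vertical axes, from 0) of the 10 iron recycling genes in each mouse of the 4 groups, with the mean and SD of 3 mice in black. For Slc40a1, Spic, Hmox1 and Slc11a1 the 3 B+A10-FMT mice lie above all 9 other mice, whereas Fth1 is nearly level across the groups.

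Compared with all other mice, the B+A10-FMT mice held the highest values of 4 of the 10 members. Every B+A10-FMT mouse lay above each of the 9 other mice for Slc40a1, Spic, Hmox1 and Slc11a1, a pattern that 2.84% of the 12671 genes showed, and every B+A10-FMT mouse lay below the 9 others for none of the members (0.758%). Set against B+Con-FMT, the same-drug group with control microbiota, 5 members were called higher by limma (Slc40a1, Slc11a1, Hmox1, Lrp1 and Spic), where 7.58% of all genes were called higher and 10.4% in either direction. None was called lower (2.78% of all genes), and the median log2 fold change was 0.41 over the members and 0.05 over all genes tested. The mice of the 2 groups did not overlap for those 5 members, all higher, as for 23.8% of all genes. Set against B-sa, 3 members were called higher (Slc40a1, Spic and Slc11a1; 4% of all genes higher, 5.27% in either direction). The median log2 fold change was 0.37 for the members and 0.05 over all genes tested, and 5 members did not overlap, all of them higher (19.7% of all genes; 7.38% lower).

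The other 4 comparisons gave 0 or 1 call among the members. Between B-sa and Con-sa 1 of 10 was called, Blvrb, which was higher (4.73% of all genes higher, 9.78% lower, 14.5% in either direction), and the members' median log2 fold change was -0.10 against -0.04 for all genes. Between B+Con-FMT and B-sa none of the 10 was called by limma and none had an unadjusted p under 0.05, while 0.844% of all genes were called (0.623% higher, 0.221% lower) and 2329 of the 12671 had an unadjusted p under 0.05. All 10 members overlapped between these groups, where 10.4% of all genes were higher and 9.05% lower without overlap. Between B+Con-FMT and Con-sa none was called either (8.87% of all genes, 2.3% higher and 6.57% lower), although 4 members had an unadjusted p under 0.05 (Lrp1, Hmox1, Blvrb and Slc11a1), as did 3476 of the 12671 genes. Without overlap, 1 member was higher (10.6% of all genes) and 3 were lower (23.6% of all genes). Between B+A10-FMT and Con-sa the single call was Slc40a1, higher (0.118% of all genes higher, 0.41% in either direction), and 6 members were higher without overlap (11.7% of all genes; 9.9% lower). The comparisons with B+A10-FMT share those 3 mice, and those against 1 control group share its mice, so that they are not independent of each other.

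**Figure D2:**
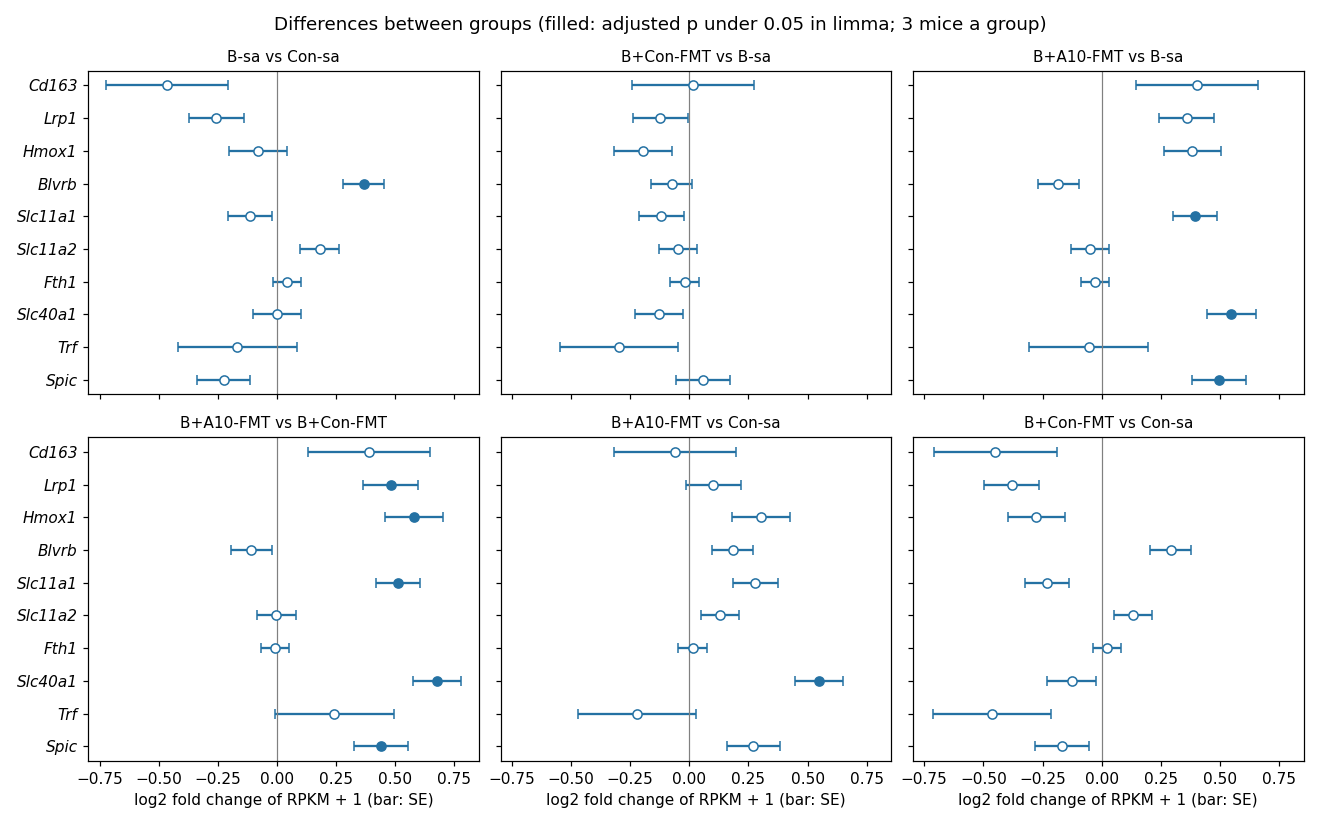
Log2 fold change of RPKM + 1 (horizontal axis, first group minus second, bars show SE) of each member in the 6 comparisons, filled where limma's adjusted p was under 0.05 with 3 mice a group. Filled points lie to the right of 0 in every panel that has any, 5 of them in B+A10-FMT against B+Con-FMT.

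Slc40a1 (Entrez 53945, chr1:45908070-45926532) encodes ferroportin, through which macrophages release iron, and it showed the largest difference of the members between the FMT groups. It stood at 96.6, 98.5 and 92.1 RPKM in the Con-sa mice 1 to 3, 80.6, 103 and 106 RPKM in B-sa, 79.1, 89.5 and 94.7 RPKM in B+Con-FMT, and 138, 156 and 129 RPKM in B+A10-FMT. The 3 B+A10-FMT mice were the highest of the 12, and the mice of the other 3 groups overlapped. The mean of 140.8 ± 14.04 RPKM (SD, n = 3) in B+A10-FMT was 60.5% above that of B+Con-FMT (87.7 ± 7.97), with a log2 fold change of 0.68 (SE 0.10, limma adjusted p = 0.00399). Against B-sa (96.4 ± 13.8 RPKM) the log2 fold change was 0.55 (SE 0.10, limma adjusted p = 0.0144), and against Con-sa (95.7 ± 3.32 RPKM) it was 0.55 (limma adjusted p = 0.0434). The last of these calls was lost under 5 of 7 other settings, with limma adjusted p from 0.0521 with a pseudocount of 0.1 to 0.287 with NM transcripts alone, and without 7 of the 12 mice in turn. The call against B-sa was lost with only the 2 groups compared (limma adjusted p = 0.0610), with NM transcripts alone (0.0784) and without B+A10-FMT mouse 2 (0.0720). Between B-sa and Con-sa no difference in Slc40a1 was detected (SE 0.10 on the log2 scale, limma adjusted p = 0.999).

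NM_016917.2, the curated Slc40a1 transcript, whose GENCODE counterpart holds the iron-responsive element, made up 86.4%, 81.2%, 78.9% and 86.9% of the gene's mean RPKM in the order Con-sa, B-sa, B+Con-FMT, B+A10-FMT. It stood at 122, 139 and 106 RPKM in the B+A10-FMT mice, above the 50.3 to 87.5 RPKM of the 9 others. The predicted transcript XM_006496137.2 did not follow it, at 8.64 ± 3.96 RPKM in B+A10-FMT and 13.7 ± 10.2 RPKM in B+Con-FMT, where mouse 1 had 25.2 RPKM of it. How reads were shared among the transcripts of a gene is not given in the sources used here.

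Spic (Entrez 20728, chr10:88675269-88683023) encodes the Ets family transcription factor that red pulp macrophages need to develop. It stood at 60, 66.5 and 61.1 RPKM in the Con-sa mice, 50.5, 55.4 and 54.0 RPKM in B-sa, 44.6, 59.4 and 64.5 RPKM in B+Con-FMT, and 78.8, 81.0 and 67.7 RPKM in B+A10-FMT. The B+A10-FMT mice were again the highest, and every B-sa mouse lay below every Con-sa mouse, as 22.8% of all genes did. From B-sa to B+A10-FMT the mean went from 53.3 ± 2.53 to 75.8 ± 7.12 RPKM (log2 fold change 0.50, SE 0.11, limma adjusted p = 0.0307). The log2 fold change against B+Con-FMT was 0.44 (SE 0.11, limma adjusted p = 0.0338), while those of B-sa against Con-sa (-0.23, limma adjusted p = 0.196) and of B+A10-FMT against Con-sa (0.27, limma adjusted p = 0.333) did not pass. Neither call was kept with no filter on low values (limma adjusted p = 0.0503 against B-sa and 0.0546 against B+Con-FMT), with NM transcripts alone (0.0551 and 0.0550) or without B+A10-FMT mouse 1 or 2. The call against B-sa was also lost without any 1 of the B-sa mice, and that against B+Con-FMT with median-of-ratios scaling (0.0567), with only the 2 groups compared (0.101), without B+Con-FMT mouse 2 (0.0578) and without B+Con-FMT mouse 1, where the log2 fold change was 0.28 (limma adjusted p = 0.0851).

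The 250 bases before the Spic start site are shown because the repressor Bach1, which heme inactivates, is known to act on this gene. RefSeq's promoter table (GRCm38.p6) held 8 promoters of 6 members, and 4 motifs were searched on both strands of the 250 upstream bases: TGACNNNGC (antioxidant response element), TGCTGA (core of the sites bound by Maf and Bach proteins), GAGGAA (Ets core) and CACGTG (E-box). A TGCTGA can overlap a TGACNNNGC. TGCTGA was found in 1 of the 8 member promoters, that of Spic, at -198 to -193 from the start site, and in 16.1% of 32851 promoters. TGACNNNGC was found in that of Lrp1 (10.2% of all promoters), GAGGAA in that of Slc11a1 (23.3%), and CACGTG in none of the 8 (6.02%). The match, in capitals, is one of letters only, and Bach1 mRNA itself was at 8.77 RPKM on average.
Spic promoter, chr10:88683024-88683273, minus strand: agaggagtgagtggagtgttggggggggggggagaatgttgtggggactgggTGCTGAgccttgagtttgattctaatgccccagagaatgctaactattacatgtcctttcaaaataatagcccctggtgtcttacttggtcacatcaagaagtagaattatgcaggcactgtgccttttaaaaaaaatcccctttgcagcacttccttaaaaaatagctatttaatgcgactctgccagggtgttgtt

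Hmox1 (Entrez 15368, chr8:75093618-75100593) encodes the inducible heme oxygenase, which opens the heme ring and frees its iron. It stood at 299.7, 306 and 312 RPKM in the Con-sa mice, 233, 319.9 and 325 RPKM in B-sa, 226, 277 and 256 RPKM in B+Con-FMT, and 341, 425 and 371 RPKM in B+A10-FMT. The Con-sa mice differed by little, B-sa mouse 1 lay far below its group, and the 3 B+A10-FMT mice were the highest. Between the FMT groups the mean rose from 253 ± 25.7 to 379 ± 42.2 RPKM (log2 fold change 0.58, SE 0.12, limma adjusted p = 0.0164). Against B-sa the log2 fold change was 0.38 (SE 0.12, limma adjusted p = 0.0852) and against Con-sa 0.30 (SE 0.12, limma adjusted p = 0.315), neither of which passed although the mice did not overlap. The value against B-sa was 0.23 without B-sa mouse 1, and with the replicate block it passed (limma adjusted p = 0.0358). The call between the FMT groups was lost without B+Con-FMT mouse 1 (limma adjusted p = 0.0699) or B+A10-FMT mouse 2 (0.0741). In B+Con-FMT every mouse was below every Con-sa mouse, as for 23.6% of all genes, with a limma adjusted p of 0.167.

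Blvrb (Entrez 233016, chr7:27447978-27465981) encodes biliverdin reductase B, which acts on products of heme breakdown and is abundant in red cell precursors and it was the single member called between B-sa and Con-sa. It stood at 385, 334 and 396 RPKM in the Con-sa mice, 421, 538 and 483 RPKM in B-sa, 431, 448 and 485 RPKM in B+Con-FMT, and 437, 424 and 403 RPKM in B+A10-FMT. All 9 busulfan-treated mice lay above all 3 Con-sa mice, as for 1.73% of all genes (11.2% for the B-sa mice alone), while the 3 busulfan groups overlapped. In B-sa the mean of 480.5 ± 58.7 RPKM exceeded that of Con-sa (372 ± 33.0) with a log2 fold change of 0.37 (SE 0.09, limma adjusted p = 0.0187). The log2 fold change against Con-sa was 0.29 in B+Con-FMT (SE 0.09, limma adjusted p = 0.0535) and 0.18 in B+A10-FMT (SE 0.09, limma adjusted p = 0.378). The B-sa call was lost with only the 2 groups compared (limma adjusted p = 0.0585), without Con-sa mouse 2 (limma adjusted p = 0.0676) or B-sa mouse 2 (limma adjusted p = 0.0820).

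Beside Blvrb, 5 of the 12 erythroid markers were called between B-sa and Con-sa, where 14.5% of all genes were, 3 higher and 2 lower, the latter being the beta-globin genes Hbb-bs and Hbb-bt, which ran from 9.2 to 45902 RPKM and from 11.7 to 10095 RPKM between the 12 outbred mice. Tfrc, the transferrin receptor of iron-loading red cell precursors and a member of the erythroid list and of the iron list, was higher in B-sa (log2 fold change 0.33, SE 0.10, limma adjusted p = 0.0401). Of 10 neutrophil markers, 4 were called higher in B-sa (4.73% of all genes), with summed RPKM of 2106 to 2180 in Con-sa and 3743 to 6129 in B-sa. The part of these cell types in the Blvrb difference was not tested.

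Slc11a1 (Entrez 18173, chr1:74375014-74386057) encodes Nramp1, a metal transporter of the phagosome membrane in macrophages. It stood at 18.7, 18.9 and 20.0 RPKM in the Con-sa mice, 15.8, 19.2 and 18.2 RPKM in B-sa, 13.96, 16.4 and 18.6 RPKM in B+Con-FMT, and 24.5, 24.4 and 21.9 RPKM in B+A10-FMT. The 3 B+A10-FMT mice were the highest of all, and the 3 B+Con-FMT mice were below the 3 Con-sa mice, as for 23.6% of all genes. The mean was 23.6 ± 1.46 RPKM in B+A10-FMT and 16.3 ± 2.33 RPKM in B+Con-FMT (log2 fold change 0.51, SE 0.09, limma adjusted p = 0.00865). Against B-sa the log2 fold change was 0.39 (SE 0.09, limma adjusted p = 0.0336) and against Con-sa 0.28 (SE 0.09, limma adjusted p = 0.241). The call against B-sa was lost with no filter (limma adjusted p = 0.0568), with median-of-ratios scaling (0.0560), with only the 2 groups compared (0.0591) and without Con-sa mouse 1, any B-sa mouse, or B+A10-FMT mouse 1 or 2 (0.0503 to 0.116), and it was kept with NM transcripts alone (log2 fold change 0.78, limma adjusted p = 0.0469). That transcript, NM_013612.2, stood at 13.8 ± 1.86 RPKM in B+A10-FMT, 7.67 ± 1.27 RPKM in B-sa, 8.14 ± 2.28 RPKM in B+Con-FMT and 10.5 ± 0.94 RPKM in Con-sa, whereas the predicted XM_006495774.1 was nearer between groups, from 7.26 ± 1.82 RPKM in B+Con-FMT to 9.74 ± 2.05 in B+A10-FMT.

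Slc11a2 (Entrez 18174, chr15:100387898-100424209) encodes DMT1, the widely used relative of Nramp1 that moves iron out of endosomes, and no call was made for it. It stood at 22.1, 19.9 and 22.4 RPKM in the Con-sa mice, 21.7, 26.5 and 25.3 RPKM in B-sa, 21.8, 23.1 and 26.1 RPKM in B+Con-FMT, and 24.3, 23.7 and 22.8 RPKM in B+A10-FMT. The groups overlapped, except that the B+A10-FMT mice were above the Con-sa mice. The largest of its differences, B-sa against Con-sa, had a log2 fold change of 0.18 (SE 0.08, limma adjusted p = 0.1497). Of its 8 listed transcripts, NM_008732.2 (53.2% to 64.6% of the group means) and NM_001146161.1 (20.6% to 24.8%) led, and the hairpin motif with unbroken pairs was in neither.

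**Figure D3:**
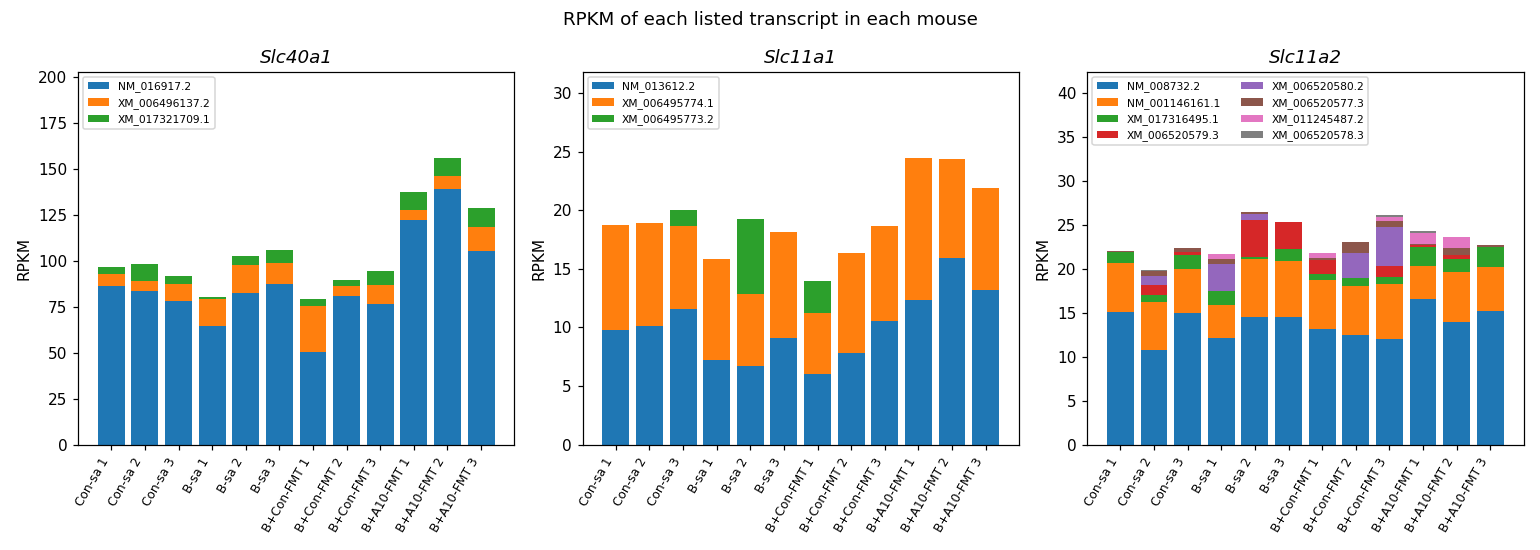
RPKM (vertical axes) of each listed RefSeq transcript, stacked, in each of the 12 mice for Slc40a1, Slc11a1 and Slc11a2. The lowest segment is the leading NM transcript, which for Slc40a1 is 106 to 139 RPKM in the B+A10-FMT mice and 50.3 to 87.5 RPKM in the others.

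Lrp1 (Entrez 16971, chr10:127538157-127621148) encodes the receptor that takes up heme bound to hemopexin, and Cd163 (Entrez 93671, chr6:124304636-124330529) the receptor for hemoglobin bound to haptoglobin. Lrp1 stood at 11.04, 9.94 and 11.4 RPKM in the Con-sa mice, 7.37, 10.3 and 9.14 RPKM in B-sa, 6.71, 8.26 and 9.38 RPKM in B+Con-FMT, and 12.1, 11.8 and 11.1 RPKM in B+A10-FMT. The B+A10-FMT mice lay above all mice of the other busulfan groups and overlapped with Con-sa. The mean was 11.6 ± 0.52 RPKM in B+A10-FMT and 8.12 ± 1.34 RPKM in B+Con-FMT (log2 fold change 0.48, SE 0.12, limma adjusted p = 0.0246), a call lost without B+Con-FMT mouse 1 or 2 or B+A10-FMT mouse 1 or 2 (limma adjusted p = 0.0590 to 0.0990). The log2 fold change was 0.36 against B-sa (SE 0.12, limma adjusted p = 0.0857), and that of B+Con-FMT against Con-sa was -0.38 (SE 0.12, limma adjusted p = 0.0590). Neither passed, though the latter did with equal totals outside the globin genes (limma adjusted p = 0.0355).

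Cd163 was low and uneven. It stood at 2.74, 1.55 and 3.73 RPKM in the Con-sa mice, 0.83, 1.82 and 2.33 RPKM in B-sa, 1.32, 1.52 and 2.03 RPKM in B+Con-FMT, and 3.25, 1.85 and 2.28 RPKM in B+A10-FMT. All 4 groups overlapped, and the SD was 22.6% to 45.9% of the mean. The largest of its log2 fold changes was -0.46, B-sa against Con-sa (SE 0.26, limma adjusted p = 0.246), followed by -0.45 in B+Con-FMT against Con-sa (limma adjusted p = 0.285). In B+A10-FMT it was 0.40 against B-sa (limma adjusted p = 0.363) and 0.39 against B+Con-FMT (limma adjusted p = 0.345). The haptoglobin and hemopexin genes, whose products feed these receptors and come mainly from liver, were at 15.9 to 48.0 RPKM (Hp) and 0.20 to 7.01 RPKM (Hpx).

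Fth1 (Entrez 14319, chr19:9980600-9985111) encodes the ferritin heavy chain, which oxidizes iron for storage, and was the steadiest member. It stood at 1947, 1888 and 1994 RPKM in the Con-sa mice, 1874, 2105 and 2029 RPKM in B-sa, 1875, 1997 and 2050.4 RPKM in B+Con-FMT, and 2047, 2038 and 1808 RPKM in B+A10-FMT. All groups overlapped, and the group means lay between 1943 ± 53.1 and 2003 ± 118 RPKM. The largest of its 6 log2 fold changes was 0.04 (SE 0.06, B-sa against Con-sa, limma adjusted p = 0.666), and that of B+A10-FMT against B-sa was -0.03 (SE 0.06, limma adjusted p = 0.807). Ftl1, the light chain that shares the same kind of hairpin, was at 2214 to 2677 RPKM and was called in none of the 6 comparisons. Both ferritin genes have processed pseudogenes, and whether reads were shared with these is not given in the sources used here.

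Trf (Entrez 22041, chr9:103208876-103230286) encodes transferrin, which liver secretes and which carries iron in plasma. It stood at 95.2, 72.5 and 118 RPKM in the Con-sa mice, 56.9, 107 and 93.9 RPKM in B-sa, 60.3, 61.3 and 82.8 RPKM in B+Con-FMT, and 87.9, 76.7 and 75.7 RPKM in B+A10-FMT. All groups overlapped and no call was made, the largest difference being that of B+Con-FMT against Con-sa (log2 fold change -0.46, SE 0.25, limma adjusted p = 0.263). Liver markers varied beside it: the summed RPKM of 6 hepatocyte genes (Alb, Apoa1, Ahsg, Ttr, Fgb and Apob) was 95.2, 16.8 and 205 in the Con-sa mice, 7.69, 65.8 and 36.2 in B-sa, and 10.6, 12.5 and 48.3 in B+Con-FMT. In B+A10-FMT it was 10.02, 2.61 and 4.75. Within each of the Con-sa, B-sa and B+Con-FMT groups the mice ranked alike by Trf and by this sum. In B+A10-FMT the mouse with the highest sum had the highest Trf, while the others ranked the opposite way (sums of 2.61 and 4.75, Trf at 76.7 and 75.7 RPKM). The summed RPKM of 6 adipocyte markers ran from 19.8 to 162 between mice. The part of these tissues in the Trf values was not tested.

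**Figure D4:**
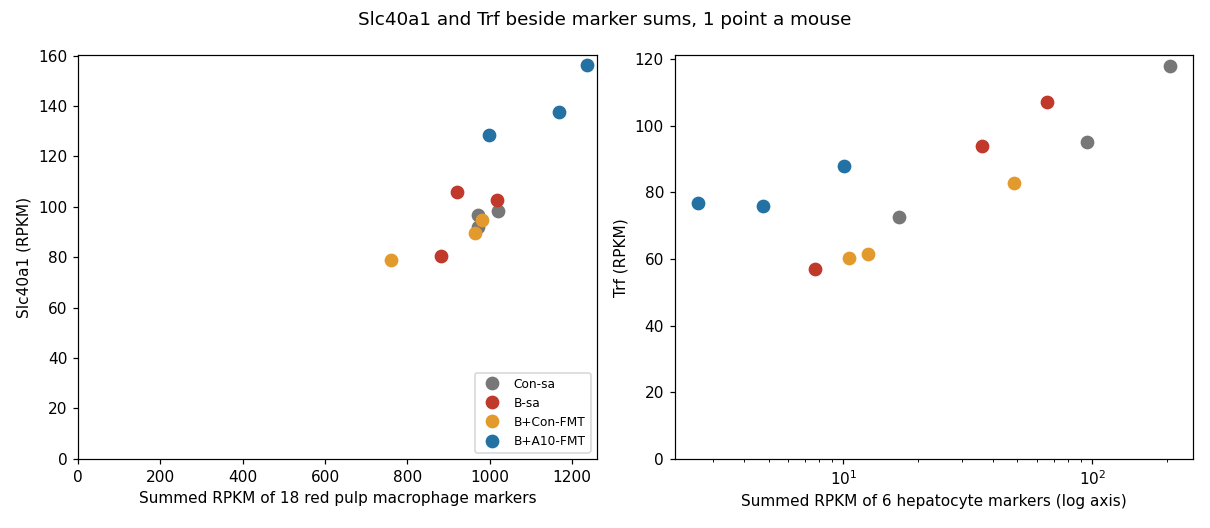
Left, Slc40a1 RPKM against the summed RPKM of 18 other red pulp macrophage markers, and right, Trf RPKM against the summed RPKM of 6 hepatocyte markers on a log axis, with 1 point a mouse. The B+A10-FMT mice lie highest in Slc40a1 at marker sums of 999 to 1236, and the mouse with the highest hepatocyte sum (205) has the highest Trf (118).

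Red pulp macrophage markers outside the members also differed between the groups. Their summed RPKM was 972, 1019 and 973 in the Con-sa mice, 882, 1017 and 919 in B-sa, 760.2, 964 and 983 in B+Con-FMT, and 1167, 1236 and 999 in B+A10-FMT. B+A10-FMT mice 1 and 2 were above all others, and mouse 3 lay within the range of the rest. By the mean log2(RPKM + 1) of the 18 markers, in which abundant genes weigh less, all 3 B+A10-FMT mice were above the 9 others, mouse 3 narrowly (5.34 against a highest of 5.32). Of the 18 markers, 11 were called higher against B+Con-FMT and 7 against B-sa in the B+A10-FMT mice (7.58% and 4% of all genes), with median log2 fold changes of 0.35 and 0.26 against 0.05 over all genes in both, and 0 were lower. Among them were the efferocytosis receptor Mertk (0.63, SE 0.10, limma adjusted p = 0.00486), Treml4 (0.60, limma adjusted p = 0.0275), the integrin gene Itgad (0.59, limma adjusted p = 0.0419) and the mannose receptor Mrc1 (0.57, limma adjusted p = 0.0469), all against B+Con-FMT. The list was chosen with earlier results of these data known, so that its counts beside the shares of all genes are a description and not a test. In B+Con-FMT against Con-sa 2 of the 18 markers were called lower (6.57% of all genes), Hpgd (-0.33, limma adjusted p = 0.0230) and Mertk (-0.36, limma adjusted p = 0.0452). In the other 3 comparisons limma called none. The shares of all genes called there were 14.5% (B-sa against Con-sa), 0.844% (B+Con-FMT against B-sa) and 0.41% (B+A10-FMT against Con-sa).

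When each mouse was rescaled by the mean log2 level of these 18 markers, a setting chosen after seeing the data, the fold changes between 2 groups shifted by nearly the same amount for abundant genes and by less for low ones. The median gene moved to -0.30 on the log2 scale between the FMT groups, where 38 genes were called higher and 5225 lower, so that signs and calls on this scale are relative to the markers. As 5263 genes passed here and 1312 on the deposited scale, an adjusted p under 0.05 took in larger unadjusted p values here. A call on this scale is therefore not comparable with one on the deposited scale. For B+A10-FMT against B+Con-FMT, Slc40a1 passed narrowly under this looser cutoff at a log2 fold change of 0.29 (SE 0.12, limma adjusted p = 0.0489), while Hmox1 (0.19, adjusted p = 0.192), Slc11a1 (0.14, adjusted p = 0.327), Lrp1 (0.13, adjusted p = 0.391) and Spic (0.06, adjusted p = 0.696) did not pass. Blvrb (-0.50), Fth1 (-0.40) and Slc11a2 (-0.37) were called lower on this scale. Against B-sa, where 39 of 12701 genes were called higher and 2240 lower on this scale, Slc40a1 was at 0.24 (limma adjusted p = 0.140). No member was called higher, while Blvrb (-0.49), Fth1 (-0.34) and Slc11a2 (-0.35) were called lower. Whether the spleens held more red pulp macrophages or more of these RNAs per macrophage was not measured.

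Of 4 genes listed as marginal zone macrophage markers, 3 were called higher between the FMT groups, with B+A10-FMT above (log2 fold change 0.98 for Siglec1, 0.71 for Marco and 1.77 for Cd209b), and 1 against B-sa (Siglec1, 0.83). Cd209a did not follow them, at 0.01 between the FMT groups. It was called lower in B-sa against Con-sa (-0.64, where 9.78% of all genes were lower), and Siglec1, Marco and Cd209b were not called there. Of 7 endothelial markers, 5 were called higher in B+A10-FMT against B+Con-FMT and 3 against B-sa (7.58% and 4% of all genes), while 5 were lower in B+Con-FMT and 2 in B-sa, both against Con-sa (6.57% and 9.78% of all genes). Between the FMT groups, where 7.58% of all genes were called higher and 2.78% lower, 1 of 5 tested monocyte markers was called higher, 1 of 6 B lymphocyte markers lower, 1 of 8 fibroblast and smooth muscle markers higher and 1 of 2 tested kidney markers lower, and none of the neutrophil, erythroid, T lymphocyte, hepatocyte, adipocyte or pancreatic acinar markers was called by limma. The 9 acinar markers, though not called, were all lower in B+A10-FMT, with log2 fold changes of -3.19 (Amy2a5, SE 1.27) to -2.32 (Cela1, SE 1.03). The part of these cell types and tissues in the members' differences was not tested.

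Of the wider iron and heme pathway, 44 further genes were listed, of which 43 were measured and 36 tested. In B-sa compared with Con-sa, 5 were called higher and 1 lower, where 14.5% of all genes were called (median log2 fold change 0.02, against -0.04 for all genes). The higher ones were Ltf (lactoferrin, a neutrophil granule protein; 1.09, limma adjusted p = 0.0491), Tfr2 (a relative of the transferrin receptor; 0.43, limma adjusted p = 0.0236), Abcg2 (a porphyrin exporter; 0.34, limma adjusted p = 0.0205, but -0.090 and not called with NM transcripts alone), Tfrc, and Blvra (biliverdin reductase A; 0.24, limma adjusted p = 0.0321). Ltf is also on the neutrophil list and Tfrc on the erythroid list. Bmp2, a ligand that raises hepcidin in liver, was the lower one (-0.33, limma adjusted p = 0.0188).

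Between B+A10-FMT and B+Con-FMT, 4 of the 36 were called, all higher, where 7.58% of all genes were higher and 10.4% were called: Bmp6, the main iron-responsive inducer of hepcidin (0.42, SE 0.08, limma adjusted p = 0.00866), Hfe, the hemochromatosis gene (0.37, limma adjusted p = 0.0158), Bmp2 (0.27, limma adjusted p = 0.0469) and Slc48a1, which moves heme out of the phagolysosome (0.21, limma adjusted p = 0.0497). Against B-sa, where 4% of all genes were higher and 5.27% were called, 3 were higher, Bmp2 (0.44, limma adjusted p = 0.0119), Bmp6 (0.40, limma adjusted p = 0.0166) and Hfe (0.31, limma adjusted p = 0.0420). The median over the list was 0.05 between the FMT groups and -0.01 against B-sa, near the 0.05 of all genes. In B+Con-FMT against Con-sa, where 2.3% of all genes were higher and 8.87% were called, the one call was Tfr2, higher (0.37, limma adjusted p = 0.0492). None was called in B+Con-FMT against B-sa (0.844% of all genes) or B+A10-FMT against Con-sa (0.41%). The 3 most abundant genes of the list, Ftl1, Slc25a37 (mitoferrin, mean 394 RPKM) and Pcbp2 (an iron chaperone, mean 231 RPKM), were not called in any comparison, and the hepcidin gene Hamp, made mainly in liver, was at 0 to 8.75 RPKM.

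**Figure D5:**
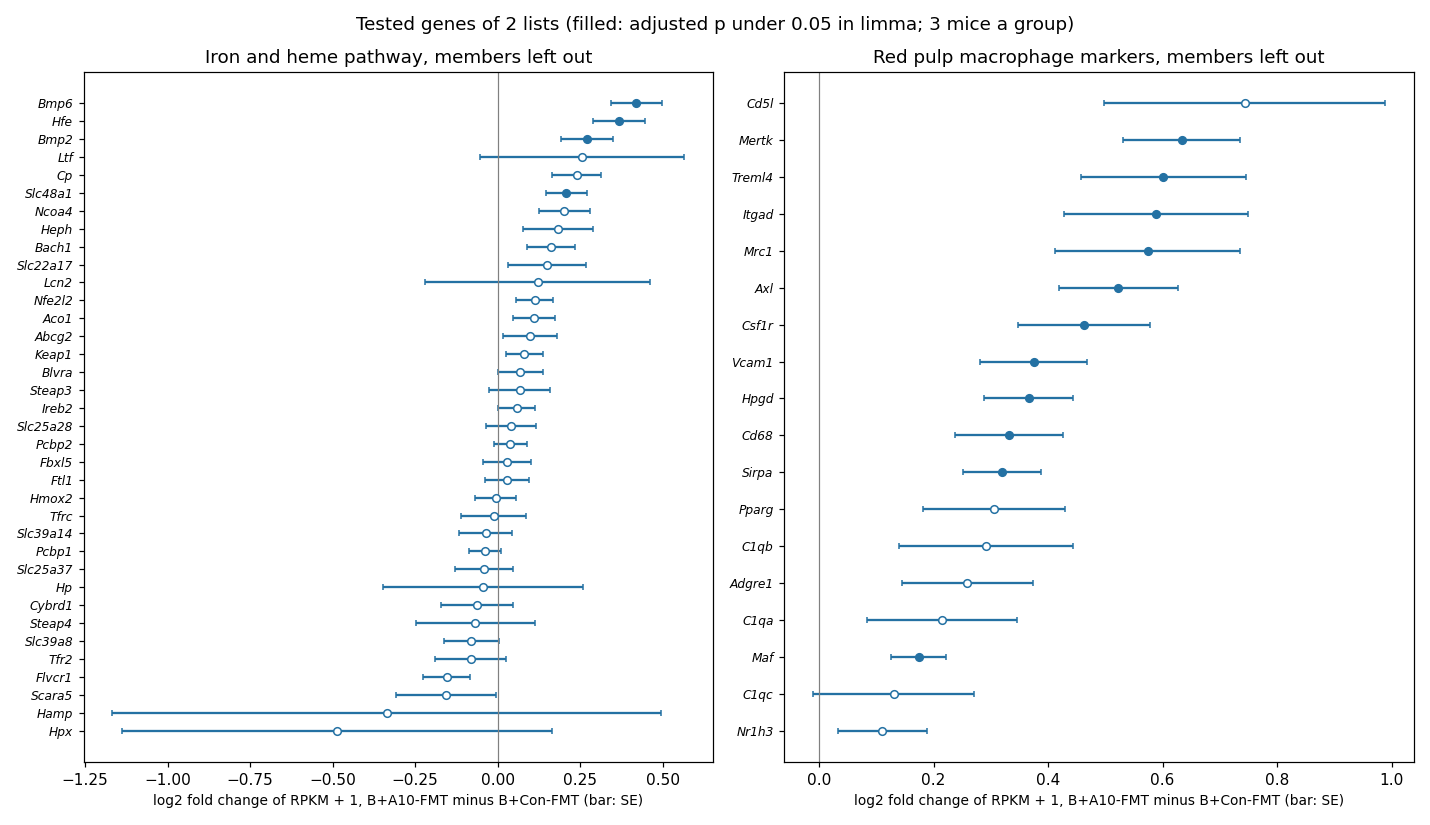
Log2 fold change of RPKM + 1 in B+A10-FMT minus B+Con-FMT (horizontal axes, bars show SE) for the 36 tested genes of the iron and heme list and the 18 red pulp macrophage markers, members left out, filled where limma's adjusted p was under 0.05. Of the iron list 4 points are filled, and of the macrophage list 11, all to the right of 0.

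The genes whose levels over the 12 mice were most like those of 3 members, by Pearson's r of log2(RPKM + 1) over all tested genes, are given as a description, since the 12 mice share the groups. Nearest to Slc40a1 were Rnf144b (r = 0.969), Vcam1 (0.959), Emp1 (0.953), Sema6d (0.943) and Frmd4b (0.942). Nearest to Spic were Cdc42ep1 (r = 0.979), Fgr (0.962), the macrophage growth factor receptor gene Csf1r (0.956), Vgll3 (0.954) and Cd81 (0.951). Nearest to Hmox1 were Gulp1 (r = 0.966), Mertk (0.960), Sik2 (0.925), Frmd4b (0.924) and B430306N03Rik (0.922). Of these, Vcam1, Csf1r and Mertk were on the list of red pulp macrophage markers.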

How the data were processed

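RNA-seq of 12 spleens was analysed. Per the study's methods, TRIzol-extracted, DNase-treated RNA was enriched with oligo(dT), reads were mapped with SOAPaligner and turned into RPKM; the submitters' processing notes name HISAT, Bowtie2 and mm10 instead, and which produced the values is not given in the sources used here. The authors deposited RPKM for 60654 RefSeq transcripts (24036 NM, 32604 XM and 4014 XR) in each mouse, without counts. Depth was therefore estimated from the steps between low RPKM, and no counting intervals are given, so that precision rests on 3 mice a group.

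RPKM of the transcripts of each Entrez gene were summed, and names came from RefSeq's gene table (18101 of 18221 genes matched). Every gene reaching 1 RPKM in 3 or more mice entered limma 3.58.1 in R 4.3.3 (trended, robust, two-sided) with all 12 mice and group as the only factor, in 6 comparisons. The scale was log2(RPKM + 1), which understates changes of low genes. Adjustment was by Benjamini-Hochberg across the 12671 genes. The p-values cover the spread between these mice only. Groups came from the agent labels, and replicate numbers name different mice. The fit was tested on simulated data. Figures used matplotlib 3.10.9.

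The members and gene lists were chosen with earlier results of these data known. All members are named; of the iron list, genes called in any comparison and the 3 of highest RPKM; of the red pulp list, the 3 highest and up to 4 called genes of largest change; other marker lists are given mainly by counts. Likeness was ranked for Slc40a1, Spic and Hmox1. The alternatives were a pseudocount of 0.1, no filter, 2 other scalings (median-of-ratios and equal totals outside the globin genes), a replicate block, fits of only the 2 groups compared, NM transcripts alone, each mouse left out, and the added scaling to macrophage markers. Sequences came from GENCODE M21 and RefSeq.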

Additional observations from a re-analysis of the deposited data

How the results depend on the processing

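The calls of Slc40a1 and Slc11a1 between B+A10-FMT and B+Con-FMT were kept in all 7 planned settings and all 12 fits without 1 mouse, with log2 fold changes of 0.60 to 0.83 and 0.41 to 0.72; with the scaling to macrophage markers, added after seeing the data, Slc11a1 was not called. The other calls depended on the setting, as did the number of all genes called. Against B-sa, B+A10-FMT had 668 of 12671 genes called in the main fit and 459 of 18218 with no filter. It had 158 of 12671 with only the 2 groups compared and 203 of 11598 with NM transcripts alone. Between the FMT groups the counts were, in the same order, 1312, 902, 1016 and 546. For B+A10-FMT against Con-sa they were 52, 66, 36 and 1. For B-sa against Con-sa 1838 genes fell to 972 with only the 2 groups compared. For B-sa against Con-sa 0 members were called with only the 2 groups compared, and 0 to 2 without 1 mouse (0 without Con-sa 2 or B-sa 2, and Slc11a2 beside Blvrb without B-sa 1). For B+A10-FMT against B-sa 1 was called with no filter (Slc40a1), with only the 2 groups compared (Spic) or with NM transcripts alone (Slc11a1), 2 with median-of-ratios scaling (Slc40a1 and Spic), and 0 to 3 without 1 mouse: only Slc40a1 without B-sa 1, 2 or 3 or B+A10-FMT 1, and 0 without B+A10-FMT 2. For B+A10-FMT against B+Con-FMT 4 were called, Spic being lost, with no filter, median-of-ratios scaling, only the 2 groups compared or NM transcripts alone, and 2 to 5 without 1 mouse, with 2 left (Slc11a1, Slc40a1) without B+Con-FMT 1 or B+A10-FMT 2, and 3 (with Hmox1) without B+Con-FMT 2 or B+A10-FMT 1. For B+A10-FMT against Con-sa 0 were called with a pseudocount of 0.1, no filter, either other scaling, NM transcripts alone or the scaling to macrophage markers, and 0 to 1 without 1 mouse (0 without any Con-sa mouse, B-sa 2, B+Con-FMT 2, or B+A10-FMT 1 or 2). For B+Con-FMT against Con-sa 1 was called with median-of-ratios scaling (Blvrb), equal totals outside the globin genes (Lrp1) or the macrophage scaling (Blvrb), 2 with only the 2 groups compared (Blvrb and Hmox1), and 0 to 2 without 1 mouse (Blvrb and Lrp1 without B-sa 1 or 2, Lrp1 without B+Con-FMT 3). The cause of these changes was not tested, and where a mouse is left out the group rests on 2.

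With median-of-ratios scaling 551 genes were called higher and 695 lower between the FMT groups, against 960 and 352 as deposited, and 287 and 329 against B-sa, where 507 and 161 were called as deposited; it gave 966 and 736 for B-sa against Con-sa (599 and 1239 as deposited) and 632 and 499 for B+Con-FMT against Con-sa (292 and 832); the members called there were all higher. With the replicate block 4 members were called for B+A10-FMT against B-sa, Hmox1 being added (adjusted p = 0.0358), and the other counts were equal. Same-numbered mice did not deviate together (r from -0.37 to 0.30), so that the number was not used as a pairing.

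Apart from the macrophage scaling, the values compared across settings whose sign turned were Slc40a1 in B-sa against Con-sa (-0.090 with NM transcripts alone, -0.073 to 0.12 without 1 mouse), Fth1 in B+A10-FMT against B-sa (-0.076 to 0.030 without 1 mouse), and Abcg2 in B-sa against Con-sa (-0.090 with NM transcripts alone). The macrophage scaling moves abundant genes by nearly the same amount and low ones by less, so that values near 0 turn by construction, which says nothing of the genes. Of the 60 log2 fold changes of the members 11 turned, 5 to negative and 6 to positive, among them Blvrb in B+A10-FMT against Con-sa (-0.019) and Trf between the FMT groups (-0.14). Between the FMT groups Bmp2 (-0.059), Hfe (-0.0015) and Slc48a1 (-0.18) of the iron list turned too. For B+Con-FMT against B-sa 0 members were called in every setting.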
